A study of Mus musculus with 6 samples.

Results

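The genes described here are those of the dystrophin complex, Dmd, Utrn, Dtna, Dag1, Sgca, Sgcb and Sgcd, together with the caveolin Cav3, in gastrocnemius muscle of denervated mice. They were taken by name, as every probe set that the platform annotation gives to a single one of these 8 genes, which gave 19 probe sets and 8 of the 17097 named genes, in a table of 45037 probe sets without its 104 array controls. The MA group was male ICR mice, 7 weeks old before 1 week of acclimation, that then ate a diet with 0.27% maslinic acid (MA), a triterpene of olive peel, and the control group was mice of the same strain, sex and age on the control diet. In both groups both legs were denervated by removing 5 mm of the sciatic nerve after 1 week of feeding, and the muscle was taken on day 14 after surgery with the diets continued, so that both groups were denervated and no innervated muscle was measured. Each group had 3 arrays of the Affymetrix GeneAtlas mouse type with perfect-match probes, and nothing in the sources used here tells if each array of a group is of its own mouse, so that the p-values measure the spread between arrays, which may be technical. RNA of a whole muscle was measured, in which fewer cells of a type and less RNA per cell cannot be told apart.

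The dystrophin complex joins the cytoskeleton of a muscle fiber to the matrix around it. Dystrophin (Dmd) binds actin inside the fiber and dystroglycan (Dag1) at the membrane, and dystroglycan binds laminin outside, while the sarcoglycans sit beside dystroglycan and the dystrobrevins and syntrophins beside dystrophin. Loss of dystrophin leaves the membrane fragile and causes Duchenne muscular dystrophy, loss of a sarcoglycan causes limb-girdle dystrophies, and caveolin-3 (Cav3), which shapes the caveolae of the muscle membrane, is altered in another of them. Utrophin (Utrn) is a relative of dystrophin that in adult fibers gathers at the neuromuscular junction.

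Cav3 and Dtna were the members that rose most in the MA group, Dmd rose less, and Utrn, Dag1, Sgca and Sgcb fell by small amounts. The words rose and fell stand for a difference, MA minus control, with an adjusted p under 0.05 (limma, Benjamini-Hochberg over all 45037 probe sets), and a gene with several probe sets takes the value of its brightest. By the brightest probe sets 3 of the 8 genes rose, 4 fell and 1, Sgcd, did not pass the test, where 47.8% of all 17097 named genes passed it, or 60.0% of the 10664 genes at or above the median level. Past 1.2-fold as well were 2 of the 8 genes, Cav3 and Dtna, and 12.8% of all named genes. Over all 19 probe sets 8 rose, 6 fell and 5 did not pass, where of all probe sets 42.9% passed, 21.6% higher and 21.4% lower. Without MA replicate 2 or without MA replicate 3, 3 of the 19 fell. The second rule, that of the methods, takes unadjusted values, with p under 0.05 and more than 1.2-fold. It was met by 5 of the 19, all higher in the MA group, namely 3 of Dtna, 1 of Dmd and that of Cav3, and by 10.3% of all probe sets, 4.56% higher and 5.73% lower. No MA array lay within the range of the control arrays, or the reverse, at 14 of the 19, as at 53.9% of all probe sets. Of the 19, 17 lay above the background, taken as 3.95 on the log2 scale from the probe sets for nonspecific binding, and 2, that of Sgcd and a dim one of Dmd, lay under it in both groups.

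**Figure D1:**
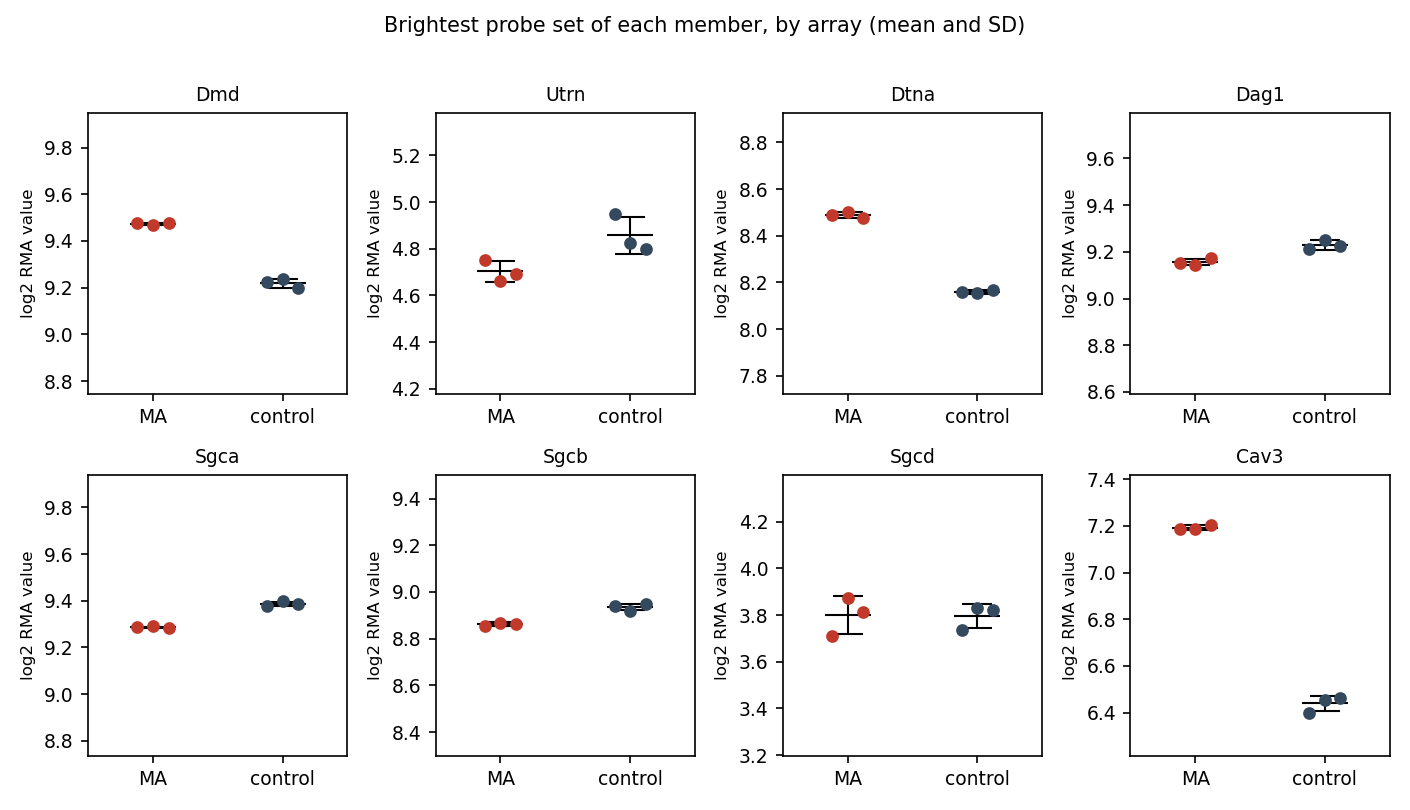
Log2 RMA value of the brightest probe set of each member, with 1 point per array, the MA group on the left and the control group on the right of each panel, and bars for the mean and SD of 3 arrays. Every panel spans 1.2 log2 units, and the groups are furthest apart for Cav3, with means of 7.19 (MA) and 6.44 (control).

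Each array had a median of 4.27 on the log2 scale, and the median SD within groups over all probe sets was 0.0365. All 7 defining genes of skeletal muscle fibers lay above the background. Of the 7, 5 rose, where 24.7% of all named genes rose and 60.0% of those at or above the median level passed. Myh4 and Myh1 did not pass, at -0.02 and -0.05. The median difference of the 7 was 0.126. Their sum on the linear scale was 34379.5 to 34510.4 in the MA group against 32295.4 to 32346.7 in the control group. Bacterial and phage transcripts added to every sample as hybridization controls had higher values in MA arrays at 18 of 18 probe sets. Their median difference was 0.17, with 0.35 as the largest. Of the 19 member probe sets 3 differed by more than that largest value. They were that of Cav3 and, of Dtna, 1425292_PM_at and 1426066_PM_a_at. Under it, and higher as the controls were, lay the brightest probe set of Dtna, at 0.33. So did 1448665_PM_at and 1417307_PM_at of Dmd, at 0.25 and 0.33. The same count over all probe sets was not made. The part of these shifts in the differences given below was not tested.

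The stretches before the starts of Cav3, Dmd and Sgca are shown because Cav3 and Dmd are members that rose and Sgca is a member that fell, and all 3 are made in muscle. Each is the 250 bases before the start in the RefSeq promoter table (build GRCm38.p6), read 5′ to 3′ on the strand of the gene, from chr6:112459255-112459504 on the plus strand for Cav3, chrX:82948620-82948869 on the plus strand for Dmd and chr11:94976328-94976577 on the minus strand for Sgca. For Dmd, which has 2 starts in the table, it is the one further upstream. Capitals mark E-boxes, CANNTG, which myogenic factors such as MyoD bind, and in Dmd also a CArG box, CCTATTATGG, the kind of site that serum response factor binds, and a MEF2 box, TTATATTTAG.
Cav3: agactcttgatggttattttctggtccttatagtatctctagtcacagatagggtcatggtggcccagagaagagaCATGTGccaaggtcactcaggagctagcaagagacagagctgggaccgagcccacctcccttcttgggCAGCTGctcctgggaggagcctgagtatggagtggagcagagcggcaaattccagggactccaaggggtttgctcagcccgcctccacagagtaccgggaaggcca
Dmd: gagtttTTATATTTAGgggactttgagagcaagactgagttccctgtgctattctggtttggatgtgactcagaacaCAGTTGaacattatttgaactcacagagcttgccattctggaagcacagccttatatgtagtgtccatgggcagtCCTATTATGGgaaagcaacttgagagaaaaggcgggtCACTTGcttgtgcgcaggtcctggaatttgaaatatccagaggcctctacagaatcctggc
Sgca: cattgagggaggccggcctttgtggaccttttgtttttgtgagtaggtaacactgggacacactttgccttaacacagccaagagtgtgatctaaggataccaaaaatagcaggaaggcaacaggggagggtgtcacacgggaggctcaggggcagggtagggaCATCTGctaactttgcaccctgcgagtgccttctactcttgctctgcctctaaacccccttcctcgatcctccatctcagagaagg
Cav3 had 2 E-boxes, CATGTG and CAGCTG, Dmd had 2, CAGTTG and CACTTG, and Sgca had 1, CATCTG. An E-box was found in 66.2% of the 32817 promoters of the table, a CArG box in 1.47% and a MEF2 box in 2.92%, in the same 250 bases and on both strands, and no marked match overlapped another. The M-CAT site CATTCC, found in 12.6% of the promoters, and the N-box CCGGAA, found in 12% of them, were in none of the 3 stretches. Of the 8 genes 7 were in the table with 9 starts, and the start of Dmd further downstream and that of Sgcb held none of the 5 motifs. Among the members not shown, Utrn, which fell, had 7 E-box matches, and Sgcd had 2 and also 1 M-CAT match. Dag1, which also fell, had 1 E-box, the same one before both of its 2 starts, as these stretches overlap. A match is a description of the letters and not a measured site.

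Cav3, the muscle caveolin, showed the largest difference among the members. Its single probe set had log2 values of 7.19, 7.19 and 7.20 in the MA group, against 6.40, 6.45 and 6.46 in the control group. The lowest MA array stood above the highest control array by many times the spread within either group. Cav3 was 1.69-fold higher, with a log2 difference of 0.75 (standard error 0.025, 95% confidence interval 0.70 to 0.81, limma adjusted p = 1.31e-07), and its difference ranked 527 by size among the 45037 probe sets. Leaving out any 1 array kept the call. The 2 genes whose centred profile over the 6 arrays lay closest to that of Cav3, of 10657 genes above the median level, were Sms, at a root mean square distance of 0.0123, and Bpifb1, at 0.0149, where the median gene lay at 0.38. Sms differed by 0.76 and Bpifb1 by 0.78.

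Dtna encodes alpha-dystrobrevin, a cytoplasmic relative of dystrophin that binds it and the syntrophins and that is made in several spliced forms. Its brightest probe set, 1419223_PM_a_at, had 8.49, 8.50 and 8.48 in the MA group, against 8.16, 8.15 and 8.17 in the control group. Dtna was thereby 1.26-fold higher (log2 difference 0.33, standard error 0.021, limma adjusted p = 5.92e-06). The other 5 probe sets of Dtna gave differences between 0.05 and 0.66, all positive, so that the direction was shared and the size was not. The largest was at 1426066_PM_a_at, with 6.19, 6.26 and 6.27 in the MA group, against 5.54, 5.56 and 5.65 in the control group, a 1.58-fold rise. The probe set 1425292_PM_at came next, with 8.13, 8.11 and 8.14 in the MA group, against 7.55, 7.56 and 7.60 in the control group, a 1.47-fold rise. At these 3 probe sets, the ones past 1.2-fold, every MA array lay above every control array, as also at 1427588_PM_a_at and 1456069_PM_at below.

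The remaining 3 probe sets of Dtna moved less. At 1456069_PM_at the values were 6.31, 6.29 and 6.28 in the MA group, against 6.15, 6.13 and 6.21 in the control group, a rise of 0.13. At 1427588_PM_a_at they were 6.59, 6.68 and 6.65 in the MA group, against 6.46, 6.55 and 6.54 in the control group, a rise of 0.12 (adjusted p = 0.0236) that did not pass without MA replicate 2 (adjusted p = 0.088), without MA replicate 3 (adjusted p = 0.0692) or with the one-way test of the methods (adjusted p = 0.0977). At 1429768_PM_at the groups overlapped, with 5.39, 5.38 and 5.41 in the MA group, while the control group had 5.27, 5.40 and 5.36, and the difference of 0.05 did not pass (adjusted p = 0.245). Averaged over the 6 probe sets, Dtna differed by 0.31 (standard error 0.022, limma adjusted p = 1.56e-05).

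Whether probe sets of a gene changed by different amounts was tested in a fit of the brightest minus each other probe set, over 11801 such pairs of all genes, of which 45.7% passed at an adjusted p under 0.05. Among the members 7 of 11 pairs passed, of which 1 set the brightest probe set of Dmd against one under the background, and 6 passed once pairs with such a probe set were left out. All 5 pairs of Dtna were among them. The change of the brightest probe set was smaller than that of 1426066_PM_a_at by 0.33 (limma adjusted p = 2.44e-04) and than that of 1425292_PM_at by 0.23 (adjusted p = 4.65e-04), and larger than those of 1429768_PM_at, 1427588_PM_a_at and 1456069_PM_at by 0.28, 0.21 and 0.20. Which spliced forms each probe set detects is not given in the sources used here. The 2 genes with profiles closest to the brightest probe set of Dtna were Ints14, at a distance of 0.00913 with a difference of 0.33, and Magt1, at 0.00932 with a difference of 0.33, where the median gene lay at 0.172.

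**Figure D2:**
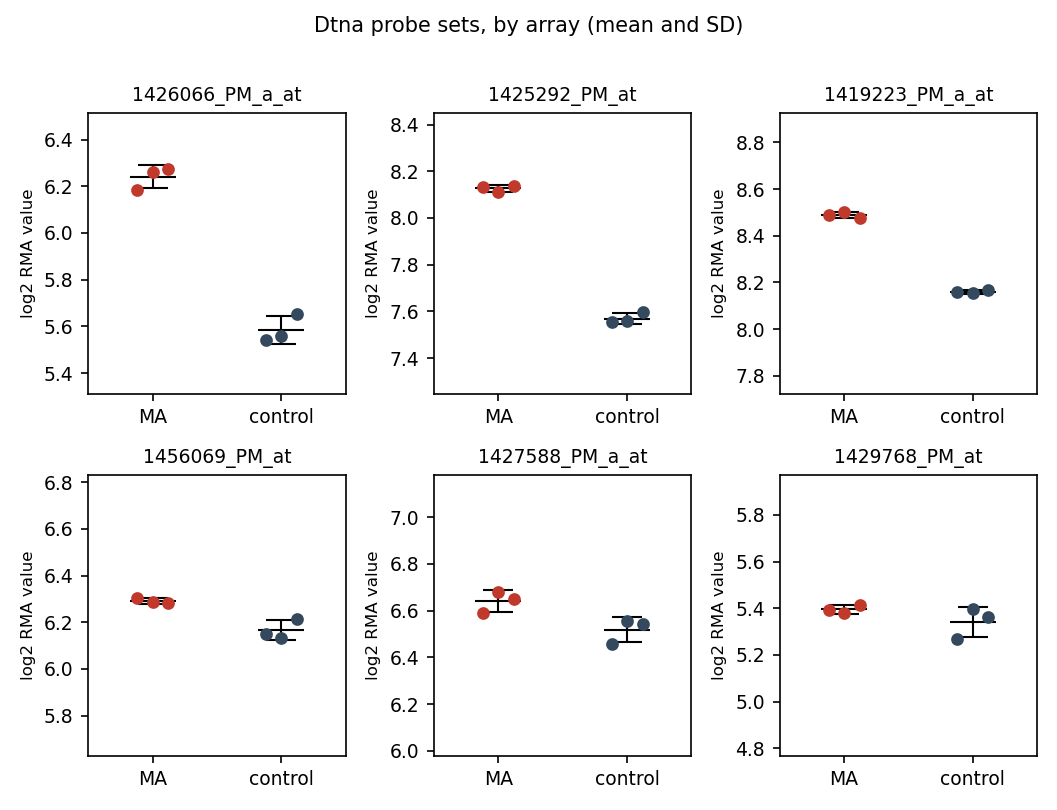
Log2 RMA value of the 6 Dtna probe sets, ordered by their difference between the groups, with 1 point per array, the MA group left of the control group, and bars for the mean and SD of 3 arrays. Every panel spans 1.2 log2 units, and the differences run from 0.66 at 1426066_PM_a_at to 0.05 at 1429768_PM_at.

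Dmd, the gene of dystrophin itself, rose at both of its bright probe sets. The brightest, 1448665_PM_at, had 9.48, 9.47 and 9.48 in the MA group, against 9.22, 9.24 and 9.20 in the control group. Dmd rose there by 0.25 (standard error 0.022, 95% confidence interval 0.21 to 0.30, limma adjusted p = 3.26e-05), a 1.19-fold rise, just under the 1.2-fold of the second rule. With quantile normalization again the difference was 0.27 and just past it, so that 6 in place of 5 member probe sets met that rule. The probe set 1417307_PM_at had 8.29, 8.33 and 8.36 in the MA group, against 8.02, 7.99 and 7.98 in the control group, a 1.26-fold rise (log2 difference 0.33, adjusted p = 2.08e-05). Neither probe set had overlapping groups, and their changes did not pass the test of a difference (0.07 on the log2 scale, adjusted p = 0.1). The third, 1430320_PM_at, lay under the background, with 3.46, 3.32 and 3.42 in the MA group, while the control group had 3.22, 3.30 and 3.33, and did not pass (adjusted p = 0.0536). It passed with an eBayes trend (adjusted p = 0.0239) and without MA replicate 2 (adjusted p = 0.0151). Averaged over the 3 probe sets, the dim one included, Dmd differed by 0.23 (adjusted p = 3.65e-05).

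Utrn, the relative of dystrophin, was slightly lower in the MA group. Its probe set had 4.75, 4.66 and 4.69 in the MA group, against 4.95, 4.82 and 4.80 in the control group. The groups did not overlap, but the highest MA array and the lowest control array were only a little apart. Utrn fell by 0.15 (standard error 0.042, 95% confidence interval -0.25 to -0.06, limma adjusted p = 0.0184), a 1.11-fold fall. This fall did not pass without MA replicate 2 (-0.13, adjusted p = 0.0708), without MA replicate 3 (-0.15, adjusted p = 0.0556) or with the one-way test of the methods (adjusted p = 0.0997). Besides muscle fibers, utrophin is made in endothelium. Of the 8 endothelial markers 7 fell, where 23.0% of all named genes fell, and 1 of the 7, Tie1, lay under the background with overlapping groups. The markers had a median of -0.205 and a summed linear level of 316 to 323 in the MA group against 359 to 380 in the control group. The part of this in the fall of Utrn was not tested.

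Dag1, whose product is cut into alpha-dystroglycan, which binds laminin, and beta-dystroglycan, which spans the membrane and binds dystrophin, was slightly lower in the MA group. Its brightest probe set, 1426778_PM_at, had 9.15, 9.15 and 9.17 in the MA group, against 9.21, 9.25 and 9.23 in the control group. The groups did not overlap, and the difference was -0.07, a 1.05-fold fall (standard error 0.022, limma adjusted p = 0.0302). At 1423872_PM_a_at, with 6.59, 6.63 and 6.66 in the MA group against 6.71, 6.74 and 6.71 in the control group, it fell by 0.09 (adjusted p = 0.0165). At 1426779_PM_x_at the groups overlapped, with 7.18, 7.19 and 7.24 in the MA group, while the control group had 7.25, 7.25 and 7.23, and the difference of -0.04 did not pass (adjusted p = 0.227). The 3 probe sets did not pass the test of different changes (adjusted p = 0.399 and 0.591), and their mean differed by -0.07 (adjusted p = 0.0227). The call of the brightest was lost without any 1 of 5 arrays, namely MA replicates 1, 2 and 3 (adjusted p = 0.0677, 0.099 and 0.0506) and control replicates 2 and 3 (adjusted p = 0.101 and 0.0665), with differences from -0.08 to -0.06. The call of 1423872_PM_a_at was lost without control replicate 2 (adjusted p = 0.0607) and with quantile normalization again (adjusted p = 0.0503).

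The sarcoglycans, membrane proteins that hold dystroglycan in the complex, were lower in the MA group for Sgca and Sgcb and did not pass the test for Sgcd. Sgca, alpha-sarcoglycan, which is made in striated muscle, had 9.29, 9.29 and 9.29 in the MA group, against 9.38, 9.40 and 9.39 in the control group. It fell by 0.10, a 1.07-fold fall (standard error 0.02, 95% confidence interval -0.15 to -0.05, limma adjusted p = 0.00494), a small difference between groups whose SDs were 0.002 and 0.01. Sgcb, beta-sarcoglycan, had 8.85, 8.87 and 8.86 in the MA group, against 8.94, 8.92 and 8.95 in the control group at its brightest probe set, 1419668_PM_at. It fell by 0.07, a 1.05-fold fall (standard error 0.021, adjusted p = 0.0224). That call was lost without MA replicates 1, 2 or 3 (adjusted p = 0.057, 0.0575 and 0.0556) and without control replicate 3 (adjusted p = 0.0717).

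A second probe set of Sgcb, 1436678_PM_at, fell more, with 7.81, 7.83 and 7.80 in the MA group against 7.98, 8.03 and 8.03 in the control group, a fall of 0.20 (adjusted p = 2.28e-04). The change of 1419668_PM_at differed from it by 0.13 (adjusted p = 0.0114). The third, 1419667_PM_at, had 7.43, 7.48 and 7.50 in the MA group, while the control group had 7.50, 7.48 and 7.51, and did not pass (-0.03, adjusted p = 0.387). Averaged over its 3 probe sets, Sgcb differed by -0.10 (adjusted p = 0.00227). Sgcd, delta-sarcoglycan, lay under the background on every array, with 3.71, 3.87 and 3.81 in the MA group, while the control group had 3.73, 3.83 and 3.82. The groups overlapped, the difference was 0.005 (95% confidence interval -0.10 to 0.11, adjusted p = 0.945), and no fold is given for it.

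**Figure D3:**
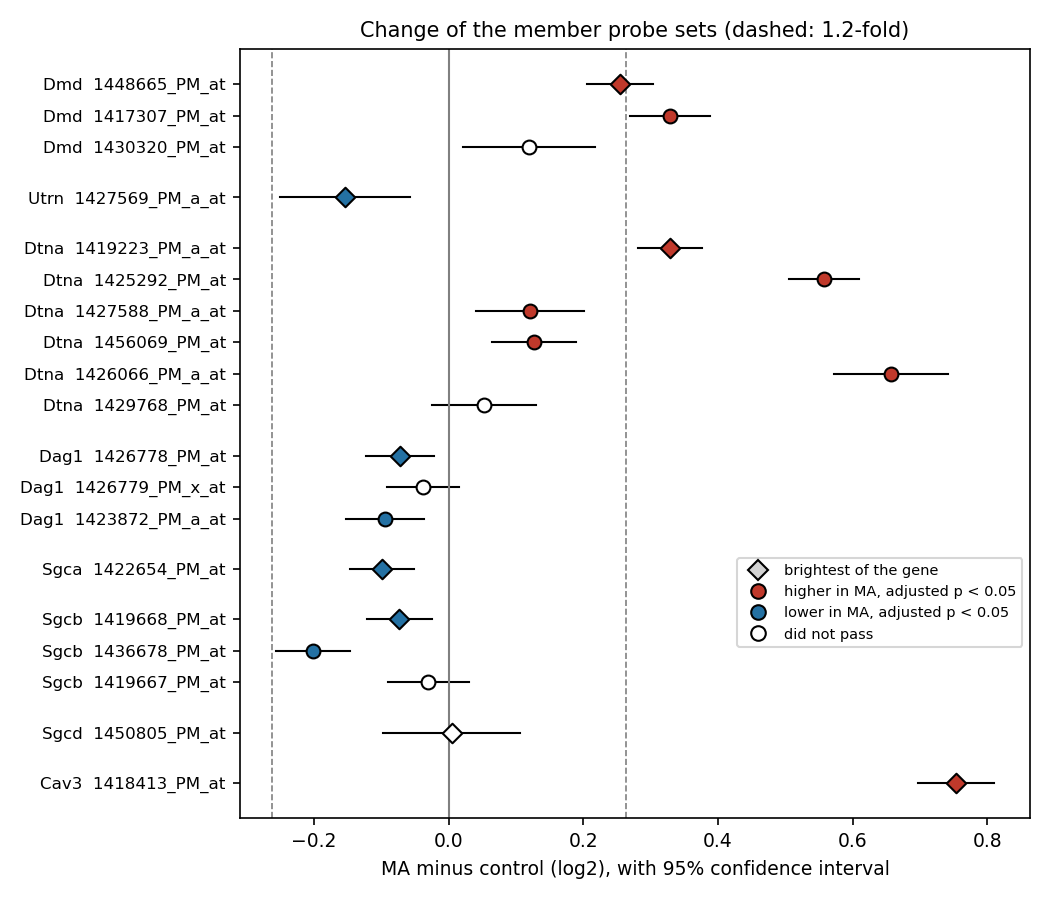
MA minus control on the log2 scale at each of the 19 member probe sets, with its 95% confidence interval, which is not adjusted for the number of tests. Diamonds are the brightest probe set of a gene, red points rose, blue points fell, white points did not pass, and dashed lines mark 1.2-fold, beyond which lie 5 probe sets, all of them higher in the MA group.

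Among the other genes of the complex, sarcospan fell and most did not pass the test. Of 9 measured, 1 rose, 2 fell and 6 did not pass, with a median of 0.00, where 24.7% of all named genes rose and 23.0% fell with a median of 0.01. Sspn, sarcospan, which sits with the sarcoglycans, had 8.35, 8.34 and 8.39 in the MA group, against 8.75, 8.76 and 8.78 in the control group, a 1.32-fold fall at its brightest probe set (log2 difference -0.40, standard error 0.024, limma adjusted p = 4.06e-06), and its other probe set differed by -0.33. The syntrophins Sntb1 and Sntb2, adaptors that bind dystrophin and dystrobrevin, rose by 0.17 and fell by 0.21, and of the 4 probe sets of Sntb2 only 1 passed. Dtnb, the other dystrobrevin, and Nos1, the neuronal nitric oxide synthase that the complex anchors, both named after their values were seen, did not pass, at -0.06 (adjusted p = 0.118) and 0.03 (adjusted p = 0.602) by the brightest probe sets. The 4 probe sets of Nos1 lay between -0.10 and 0.08, and 1 of them fell. Without control replicate 1 this list's count of calls, 3 here, was 5.

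Genes that build the sugar chains of alpha-dystroglycan, on which its binding of laminin depends, passed the test about as often as all named genes. Of 11 measured, 5 rose, 0 fell and 6 did not pass, or 45.5% called against 47.8% of all named genes, with a median of 0.09. Dpm1, a subunit of the enzyme that makes the mannose donor, rose by 0.28 at its brightest probe set (8.77, 8.80 and 8.80 in the MA group, against 8.49, 8.52 and 8.52 in the control group), but its other probe set fell by 0.12. Pomgnt2, another of the 5, likewise had 1 probe set that rose, by 0.10, and 1 that fell, by 0.09. Rxylt1, a xylosyltransferase of the chain, rose by 0.27, with 7.83, 7.86 and 7.88 in the MA group against 7.53, 7.62 and 7.61 in the control group. B3galnt2, which adds N-acetylgalactosamine, rose by 0.14, and its 4 probe sets lay between 0.02 and 0.32. None of the 5 was higher by more than the 0.35 of the hybridization controls.

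Of 8 measured matrix ligands of dystroglycan, 4 rose, 2 fell and 2 did not pass, or 75.0% called against 47.8% of all named genes and 60.0% of those at or above the median level, with a median of 0.05. The count of calls, 6 here, was 5 for means over probe sets, after median centring, with the replicate block, and without any 1 array. Lamb1, 1 of the 4 that rose, had 2 of its 4 probe sets higher and 2 lower. Lama2, the laminin alpha chain of the muscle basement membrane, had 7.22, 7.27 and 7.26 in the MA group, against 6.93, 6.95 and 6.94 in the control group, a 1.24-fold rise (adjusted p = 1.45e-05). Bgn, the proteoglycan biglycan, rose by 0.23, and Lamc1, the laminin chain that Lama2 pairs with, by 0.16. Fibroblasts also make matrix genes, and of the 7 fibroblast markers 3 rose, Lum by 0.64, Col1a1 by 0.59 and Col3a1 by 0.57. The markers went both ways, as 2 fell, Gsn by 0.19 and Dpt by 0.12, while Dcn and Pdgfra did not pass. Their median was -0.04, and their summed linear level was 7821 to 7849 in the MA group against 7294 to 7390.3 in the control group. The part of these markers in the rises of matrix ligands was not tested. A laminin chain was higher while its receptor Dag1 was slightly lower on the same arrays, a difference between these genes that was not tested.

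Genes of caveolae, the membrane pits that caveolins and cavins form, went both ways around Cav3. Of 9 measured, 4 rose, 2 fell and 3 did not pass, or 66.7% called against 47.8% of all named genes and 60.0% of those at or above the median level, with a median of 0.04. Cavin4, the cavin of muscle, had 10.34, 10.29 and 10.31 in the MA group, against 10.09, 10.07 and 10.09 in the control group, a rise of 0.23 (adjusted p = 7.99e-05). Cav1, the caveolin of endothelium and fat, had 8.98, 8.98 and 8.99 in the MA group, against 9.17, 9.18 and 9.20 in the control group, a fall of 0.20 (adjusted p = 9.97e-05). Cavin2, which is high in endothelium and fat, fell by 0.37, and its 3 probe sets all fell, by 0.37 to 0.56. The endothelial markers fell in 7 of 8 cases as given above, and the adipocyte markers went both ways, with Adipoq 1.56-fold higher, Fabp4 lower by 0.22 on the log2 scale and Lep under the background. Their summed linear level, most of it Fabp4, was 2131 to 2167 in the MA group against 2409.5 to 2445 in the control group. Their part in the falls of Cav1 and Cavin2 was not tested.

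All 9 measured genes of membrane repair passed the test by their brightest probe sets, 6 higher and 3 lower, with a median of 0.17, where 47.8% of all named genes and 60.0% of those at or above the median level passed. The count was 8 for means over probe sets, after median centring, and without any 1 of 4 arrays. Ahnak, 1 of the 3 that fell, had 3 of its 4 probe sets higher, by up to 0.53, and Ehd1, another, had 1 of 4 higher. Anxa2 and Anxa1, annexins that gather at membrane wounds, rose by 0.55 and 0.32. Anxa2 had 8.48, 8.49 and 8.48 in the MA group, against 7.96, 7.92 and 7.92 in the control group. Dysf, dysferlin, which patches the torn membrane of a fiber and whose loss causes a limb-girdle dystrophy, went the other way, with 8.06, 8.10 and 8.13 in the MA group against 8.50, 8.48 and 8.52 in control muscle, a 1.32-fold fall (adjusted p = 5.70e-06). The annexins are also made by other cells of muscle. Besides the fibroblast markers given above, 6 of the 7 macrophage markers fell, where 23.0% of all named genes fell. Cd68 did not pass, at 0.12. The sums of the 7 were 1517 to 1559.7 in the MA group against 2447 to 2510.1 in the control group. The part of either list in these changes was not tested.

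Of 15 genes of costameres and other links of the membrane to the sarcomere, 5 rose, 5 fell and 5 did not pass, or 66.7% called against the same 47.8% and 60.0%, with a median of -0.02. The count of calls, 10 here, was 9 for means over probe sets and without MA replicate 2, MA replicate 3 or any 1 control array. Without MA replicate 1 it was 11. Flnc, the filamin of muscle, which binds sarcoglycans, had 11.31, 11.31 and 11.31 in the MA group, against 10.81, 10.82 and 10.81 in the control group, a 1.41-fold rise (adjusted p = 4.52e-07). Vcl, vinculin, rose by 0.34, with its other probe set at 0.42. Lims1, an adaptor of integrin adhesions, fell by 0.35 at its brightest probe set, and the range over its 4 was -0.39 to -0.01. Sync, syncoilin, an intermediate filament protein that binds alpha-dystrobrevin, fell by 0.30, and its 3 probe sets lay between -0.30 and -0.06. Dtna rose and its binding partner Sync fell, a difference between these genes that was not tested. The integrin alpha7 beta1 is the other laminin receptor of the fiber, and Itga7 and Itgb1, also named after their values were seen, differed by -0.18 (adjusted p = 0.00127) and 0.05 (adjusted p = 0.0721) at their brightest probe sets, and 3 of the 5 probe sets of Itgb1 rose, in a range of 0.03 to 0.19.

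**Figure D4:**
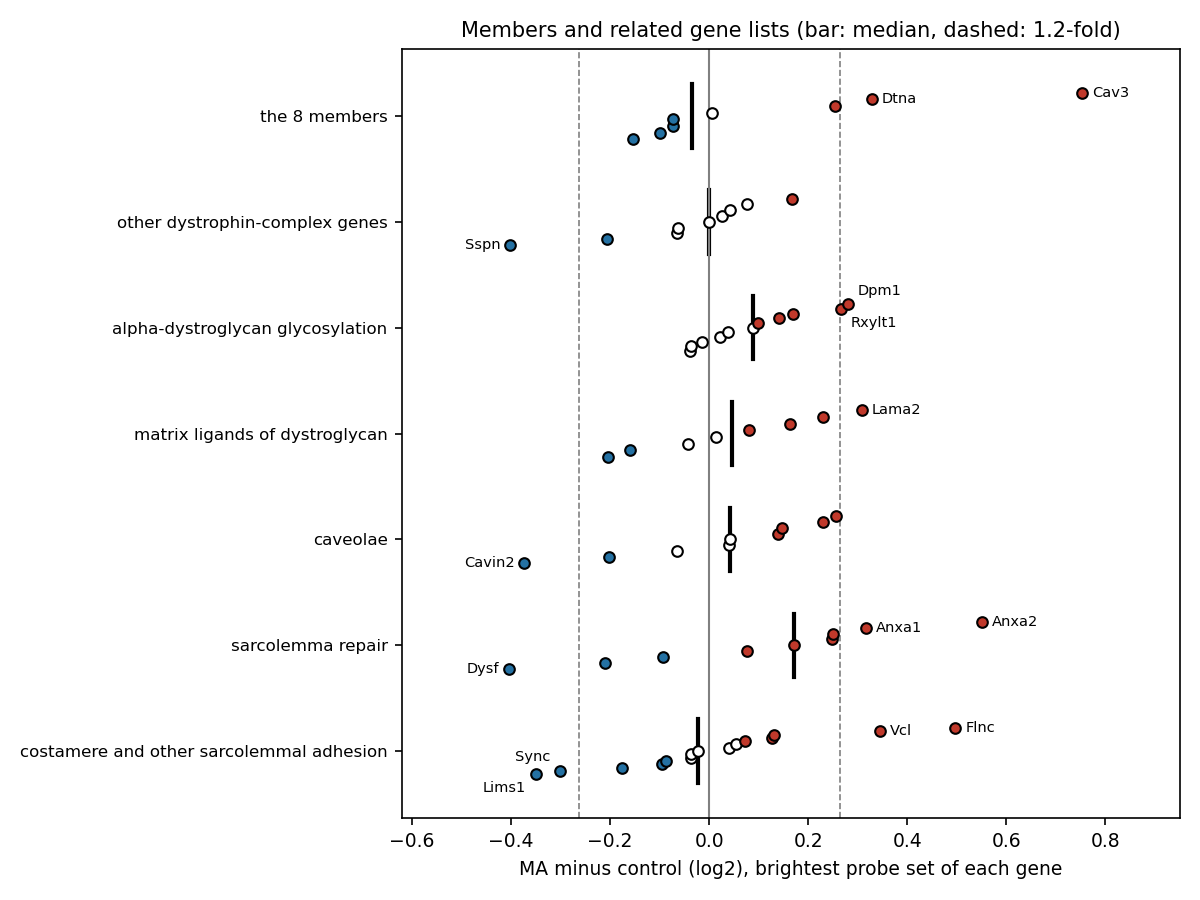
MA minus control on the log2 scale of each measured gene, by its brightest probe set, for the 8 members and 6 lists of related genes, with a bar at the median of each. Red points rose, blue points fell, white points did not pass, dashed lines mark 1.2-fold, and genes that passed beyond it are named. The median was 0.17 for membrane repair and -0.03 for the members, of which Cav3 stands furthest out at 0.75.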

How the data were processed

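Gastrocnemius RNA of 3 MA and 3 control arrays was measured on Affymetrix GeneAtlas mouse array strips, although the design text of the labels names a human strip. The deposited values are log2 values that the authors made by RMA (Affymetrix Expression Console), that is with background correction, quantile normalization and 1 summary per probe set. The version is not given in the sources used here, and neither are the strips, so that no batch could be tested. Array number limits the precision. RMA draws the arrays to 1 distribution, so that a change shared by most genes would not be seen.

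Groups came from the sample titles. In R 4.3.3, limma 3.58.1 (lmFit and eBayes, no covariate, two-sided) was fitted to 45037 probe sets after removal of 104 array controls, with Benjamini-Hochberg adjustment over all. By exact two-sided permutation the smallest p that 3 against 3 arrays allow is 0.1, which 7 of the 8 genes reached. It is reached where the groups do not overlap, as at 53.9% of all probe sets, so that it adds nothing to that count. The background was the highest of the nonspecific-binding controls other than the one of only G and C bases, which stood at 7.33. Names came from the platform annotation, where 551 probe sets name several genes and 15588 none. The members, lists and tests were chosen with earlier results of these data known. Named were all members, in each list the genes past 1.2-fold and otherwise the 3 brightest that passed, and the 2 closest profiles of members past 1.2-fold. Other genes, such as Pomgnt2, Ahnak, Ehd1 and single cell markers, were named after their values were seen. Each result was computed again with the methods' one-way test, with trend or robust moderation, array weights or a block for replicate number, after renewed quantile normalization, median centring or removal of dim probe sets, from gene means over probe sets, at 1.5-fold, and without each array in turn. On simulated data with the measured means and spread, the steps recovered 18% of 1.1-fold, 72% of 1.2-fold and 98% of 1.5-fold changes. Far fewer probe sets were changed there than passed here, so that these shares need not hold here. No promoter of Dtna is shown.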

Additional observations from a re-analysis of the deposited data

How the results depend on the processing

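The calls of Cav3, Dtna, Dmd and Sgca by their brightest probe sets kept direction and an adjusted p under 0.05 under every alternative in which they were tested, though Dmd moved past 1.2-fold, at 0.267, with quantile normalization again, and those of Utrn, Sgcb and Dag1 kept direction. Utrn had adjusted p = 0.0997 at -0.154 with the one-way test of the methods. Leaving out 1 array gave -0.182 to -0.108 for Utrn, -0.0811 to -0.0671 for Sgcb, -0.0811 to -0.0612 for Dag1 and -0.0325 to 0.0488 for Sgcd, which lay under the background, did not pass and was -0.000303 with quantile normalization again. The member probe sets that fell numbered 3 without MA replicate 2 and 3 without MA replicate 3, and between 3 and 6 over all single arrays left out. The filter at 7.33, which removed Cav3 and Utrn, left 4 member probe sets that rose, 3 of them past 1.2-fold, 3 pairs with different changes, and 5301 and 1547 calls over all probe sets by the first and the second rule. The filter at 3.95, added after the data were seen, left 17 member probe sets. With a fold over 1.5, 2 member probe sets and 979 of all remained. The list of other complex genes counted between 2 and 5 without 1 array. Same-numbered arrays of the groups had deviations that correlated with 0.199, 0.0349 and 0.153, and the numbers were not taken to pair them. The replicate block changed no call of a member and gave 19844 against 19331 probe sets. Probe sets near the background limit what can be seen of Sgcd and Utrn.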
